A study of Drosophila melanogaster with 34 samples.

Results

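Broad HDAC3 domains were defined here as HDAC3 peaks at least 10 kb wide that both HDAC3 lists and at least 1 list of another histone deacetylase share. They were chosen by the width of peaks in HDAC3 list 2, the one whose title carries the higher number, by overlap of at least 1 bp with a peak of HDAC3 list 1 and by overlap of at least 1 bp with a peak of HDAC1, HDAC4a, HDAC6 or HDAC11. HDAC3 list 2 had 2552 peaks on the 6 chromosome arms considered (X, 4 and both arms of chromosomes 2 and 3), and 541 of them met the rule. They made up 21.2% of the peaks and 44.8% of the length of the list. Together they covered 8488774 bp, which was 7.07% of the 120102709 bp of these arms.

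HDAC3 is a class I histone deacetylase. In Drosophila it is the catalytic subunit of the co-repressor complex built on Smrter, the relative of the vertebrate proteins SMRT and N-CoR, which nuclear receptors and other transcription factors bring to DNA to remove acetyl groups from histone tails. HDAC1, called Rpd3 in flies, is the class I enzyme of the Sin3 and NuRD complexes. HDAC4a belongs to class IIa, HDAC6 is best known as a cytoplasmic tubulin deacetylase, and HDAC11 is the class IV enzyme.

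The study mapped binding by chromatin immunoprecipitation and sequencing (ChIP-seq) of 36 bp reads after fixation with 1.8% formaldehyde. Each of the 5 deacetylases had 2 peak lists from 0 to 12 h embryos of the strain y; bw cn sp. Each of these lists pooled 2 libraries, and all 10 shared 1 input library. The other 8 lists were for CTCF, Caudal and EcR. CTCF, an insulator protein, was mapped in S2 cells, a cultured line that derives from Drosophila embryos, with the lists 200 and 500. Caudal, a homeodomain factor of posterior patterning, was mapped with its own antibody in 0 to 4 h embryos of y; bw cn sp. In 4 to 8 h embryos, L3 larvae and adult females (21d in the title) it was mapped with an anti-GFP antibody in flies labelled y w, VK33 with a GFP-tagged cad. EcR, the ecdysone receptor, was mapped through a GFP tag in the same background in white prepupae, with a list of 10 to 11 h and a list of 30 to 33 h. The lists pooled 2 libraries for CTCF and for Caudal at 0 to 4 h and 3 for L3 Caudal and EcR, while Caudal at 4 to 8 h and in adults had 1. Inputs of the GFP lists came from y; bw cn sp. The promoter that drove each tagged protein is not stated in the labels. A list is a single pooled observation, so no list has an error from replicates, and the lists give no read depth.

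Whole embryos hold many cell types, and the lists do not show whether peaks that lie in the same place come from the same cells. The 15 lists other than EcR and Caudal L3 give intervals with no height, so the width of a domain says how far the called interval ran and not how strong the binding was.

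The median domain was 14038 bp wide, against 5826 bp for all peaks of HDAC3 list 2 on the arms. The narrowest was 10021 bp, the lower quartile 11456 bp, the upper quartile 17669 bp and the widest 52014 bp. Of the 541 domains, 171 were under 12 kb, 230 were at least 15 kb, 90 were at least 20 kb and 20 were at least 30 kb. The domains therefore formed the upper tail of a continuous range of widths, with most of them near its lower end. The 3 domains just inside the width limit were 10021, 10022 and 10026 bp wide, at 2R 1540905 to 1550925, 2L 9887709 to 9897730 and X 15770563 to 15780588. They overlapped 3, 7 and 6 of the 8 lists of other deacetylases. The 3 peaks just outside it were 9995, 9995 and 9994 bp wide, at 2R 13343494 to 13353488, 2R 20550948 to 20560942 and 2R 2553645 to 2563638. These overlapped 1, 5 and 5 of those lists. HDAC3 list 1 covered 95.1% to 99.7% of the 3 peaks inside the limit and 78.1% to 99.2% of the 3 outside it.

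The rule asked for 1 bp of overlap with HDAC3 list 1, and the overlap found was far larger. List 1 covered 94.5% of the domain length. It covered at least 90% of the length in 451 domains, at least 50% in 535, and under 50% in 6. The median coverage of a domain was 98.2%. The lowest was 24.0%, in the 25714 bp domain at 2R 3375144 to 3400857. Overlap with list 1 was also frequent among all peaks of list 2, of which 90.4% had it. List 1 covered 90.5% of the length of the list 2 peaks under 10 kb that overlap it. High coverage by list 1 was therefore not particular to the domains.

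The called edges lay close together in the 2 lists. A single list 1 peak met 394 of the domains, 2 peaks met 129, and 3 or 4 peaks met 18. Over the 394 domains with a single list 1 peak, the median distance between the edges of the 2 lists was 152.5 bp on the left and 164 bp on the right. Both edges lay within 500 bp in 208 of these domains and within 1 kb in 262. The widest list 1 peak at a domain had a median width of 12563 bp. It reached 10 kb at 421 domains and stayed under 5 kb at 2. The width in list 1 was not part of the rule, so large extent was a property of most of these places in both lists. With the lists exchanged, the rule gave 456 domains, and 420 of the 541 domains overlapped at least 1 of them.

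**Figure D1:**
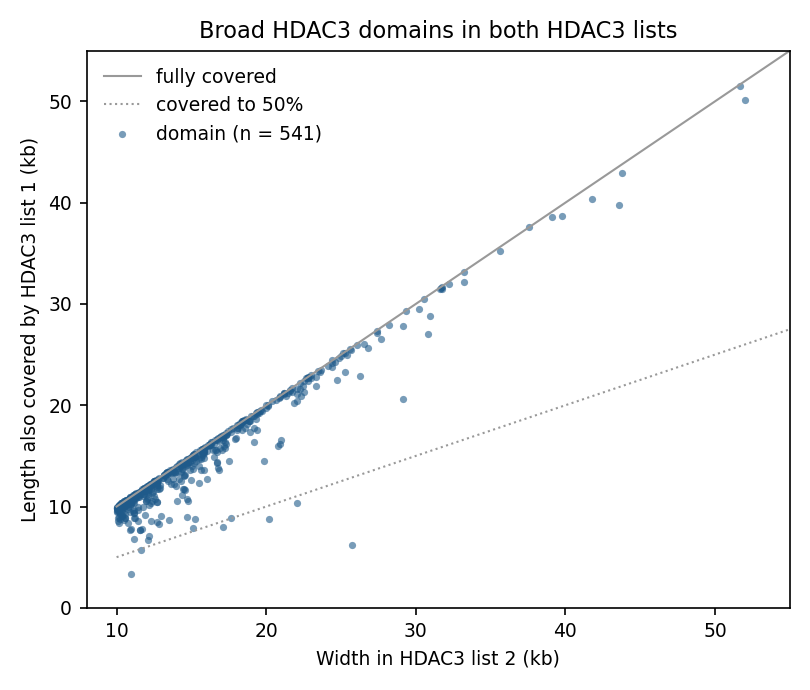
Width of each of the 541 broad HDAC3 domains in HDAC3 list 2 (horizontal axis, kb) against the length of it that HDAC3 list 1 also covers (vertical axis, kb). The solid line marks full coverage and the dotted line coverage of 50%; 451 domains are covered to at least 90% and 6 points lie below the dotted line.

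Peaks of such width were mainly a feature of the HDAC3 lists. Of the peaks on the arms, 552 (21.6%) of list 2 and 463 (17.8%) of list 1 were at least 10 kb wide. In HDAC11 the numbers were 71 (7.23%) and 26 (1.73%), in HDAC6 32 (1.08%) and 85 (2.44%), in HDAC1 43 (1.43%) and 87 (2.12%), and in HDAC4a 2 (0.074%) and 32 (0.799%). The Caudal lists of 0 to 4 h and 4 to 8 h embryos had 11 and 3 such peaks, and the other 6 lists had 0. The lists were made separately and their peak calling thresholds are unknown, so the widths are set side by side without a test. Of the 552 wide peaks, 11 were left out of the domains, 5 because they met no list 1 peak and 6 because they met no other deacetylase.

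The domains lay on all 6 arms, at different densities. There were 4.50 domains per Mb overall. The density was 6.06 per Mb on 2R (128 domains) and 5.38 on 3R (150 domains), 4.04 on 3L (99 domains) and 3.96 on 2L (91 domains), and 3.21 on X (72 domains). They covered 9.75% of 2R, 8.55% of 3R, 6.29% of 2L, 6.24% of 3L and 4.74% of X. The densities on 2R and 3R thus exceeded those on 2L and 3L, and X was the lowest of the 5 large arms.

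The X chromosome held 18.7% of the bases and 20.8% of the HDAC3 list 2 peaks but 13.3% of the domains. X thus had a larger share of the HDAC3 peaks than of the bases, and a smaller share of the domains. Of the list 2 peaks on X, 13.5% were domains, against 20.1% on 2L, 26.7% on 2R, 20.1% on 3L and 27.3% on 3R. The median width of all list 2 peaks was 5055 bp on X, against 5551, 6415, 6054 and 6809 bp on those 4 arms. In HDAC3 list 1, X was again the lowest of the large arms. The median peak was 4404 bp on X against 5171 to 6395 bp on the other large arms, and 9.87% of its X peaks reached 10 kb against 16.6% to 24.6%. Both lists share 1 input and 1 kind of embryo.

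Chromosome 4, a small chromosome that is largely heterochromatic, held 1 domain among its 47 list 2 peaks (2.13%). It spanned 669799 to 680377, and list 1 covered 87.5% of its 10579 bp. Besides the 2 HDAC3 lists it met HDAC1 list 2 (11.0% of its length), CTCF 200 (1.71%) and Caudal at 4 to 8 h (10.2%). The median list 2 peak on chromosome 4 was 3636 bp wide, and 0 of 51 list 1 peaks there reached 10 kb.

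Along the 5 large arms, cut into 5 equal parts from the centromere to the telomere, there were 97, 96, 94, 126 and 127 domains. The share of list 2 peaks that were domains was 20.5%, 19.0%, 18.4%, 24.1% and 25.8% in the same order. The higher numbers near the telomere were a feature of the pooled arms. The telomeric part held more domains than the centromeric one on 2L (24 and 14), 2R (29 and 20), 3L (30 and 15) and X (18 and 11), but fewer on 3R (26 and 37).

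**Figure D2:**
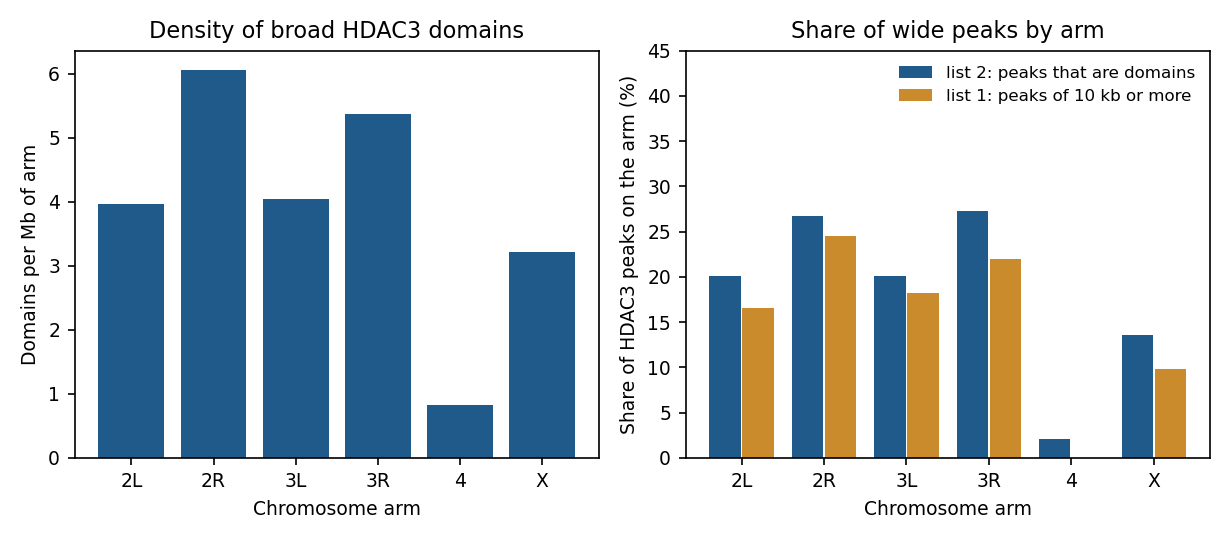
Broad HDAC3 domains per Mb on each of the 6 arms (left panel), and the percentage of HDAC3 list 2 peaks that are domains beside the percentage of HDAC3 list 1 peaks of at least 10 kb on each arm (right panel). Density runs from 0.83 per Mb on chromosome 4 to 6.06 per Mb on 2R, and X has the lowest share of the 5 large arms in both lists.

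Many domains lay near one another. Between neighbours on an arm there were 535 gaps, with a median of 96.1 kb and quartiles of 20.2 and 259 kb. The highest was 1943 kb. At the lower end 70 gaps were under 5 kb, 34 were under 1 kb, and the closest pair was 2 bp apart, at 3R 18422877 to 18434086 and 3R 18434089 to 18449255. A list 1 peak ran across 8 of the gaps under 5 kb. At those 8 places 1 list called a single interval where the other called 2, so the number of domains rests in part on how closely spaced intervals were joined. Another domain lay within 50 kb of 324 domains (59.9%). A domain lay within 50 kb of 827 of the 1759 narrower shared peaks (47.0%), by which are meant HDAC3 list 2 peaks under 10 kb that overlap list 1.

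With a gap of at most 50 kb between members, 217 domains were single, 76 pairs formed, and 172 domains (31.8%) fell into 46 clusters of at least 3. The number of domains in such clusters depended on the gap allowed, with 83 at 25 kb and 258 at 100 kb. Of these clusters 25 had 3 members, 15 had 4, and 6 had 5 or more. The largest ran from 19730337 to 20005199 on 2R and held 8 domains in 275 kb, which filled 50.8% of the span. Within it lay 21 peaks of HDAC1 list 1, 22 of HDAC1 list 2, 20 of HDAC6 list 2, 18 of CTCF 200 and 31 of Caudal at 4 to 8 h, but 2 of Caudal at 0 to 4 h. The next, at 3R 27397306 to 27627027, held 7 domains in 230 kb, and 39.1% of it lay in domains.

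The most completely filled of the 6 large clusters lay at 3R 1365293 to 1509026. It held 6 domains in 144 kb, which filled 83.7% of the span, and its widest member was 43819 bp. The other 3 large clusters were at 3R 19977815 to 20186212 (6 domains, 52.2% filled), 2L 94533 to 287122 (5 domains, 39.7%) and 3R 20624464 to 20774072 (5 domains, 47.1%). The last of these held 14 Caudal peaks of 4 to 8 h embryos and 0 peaks of CTCF 500. Among the clusters of 4, 2R 13401110 to 13482710 was 86.8% filled over 81.6 kb and 2R 4984045 to 5065175 was 79.8% filled over 81.1 kb. Another, 3L 1490609 to 1563524, was 76.1% filled over 72.9 kb. The most completely filled of all the clusters held 3 domains, at 3L 1636541 to 1669514, and was 98.6% filled over 33.0 kb. In windows of 1 Mb the median was 4 domains. Of 123 windows, 11 held none and 5 held at least 10, the highest being 13 between 20 and 21 Mb on 3R. Domains in clusters of at least 3 and single domains differed little in width, with medians of 14250.5 and 13504 bp. They also had close coverage by HDAC1 list 1 (31.5% and 31.2% of their length) and HDAC6 list 2 (43.2% and 45.6%). Some sparser lists differed more. Caudal at 0 to 4 h covered 2.58% and 3.83%, CTCF 500 4.19% and 5.71%, and EcR at 10 to 11 h, the other way, 0.215% and 0.123%.

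The 10 widest domains ran from 33257 to 52014 bp. List 1 covered 91.2% to 99.9% of each, and Caudal at 4 to 8 h covered 13.9% to 53.7%. The widest, at 3R 11143804 to 11195817, met 14 of the 18 lists, among them all 8 of the other deacetylases. The second, at 2R 4775948 to 4827650, was 51703 bp wide and held 7 CTCF 200 peaks and 6 Caudal peaks of 4 to 8 h embryos. The 43819 bp domain at 3R 1398513 to 1442331 lacked HDAC4a list 1, HDAC6 list 1, HDAC11 list 1 and Caudal at 0 to 4 h, and it met both EcR lists. On X, HDAC4a list 2 covered 66.1% of the domain at 15591085 to 15634647, and HDAC6 list 2 covered 61.7% of the one at 1750883 to 1792634. Caudal at 4 to 8 h covered 53.7% of 3R 20448262 to 20488030 and 49.9% of 2R 17191251 to 17230386. HDAC6 list 2 covered 73.3% of 3L 12494243 to 12531843, where the HDAC1 lists covered 41.4% and 44.7%. HDAC6 list 1 covered 35.5% of that 3L domain, less than either HDAC1 list. The widest domains thus differed in which lists covered them, and the 2 lists of a protein could differ in the same domain.

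A domain overlapped between 4 and 16 of the 18 lists, with a median of 10. The median was 5 lists for narrower shared peaks under 5 kb and 7 for those of 5 to 10 kb. The 2 domains in 16 lists were 2R 12066247 to 12091081, with all 8 other deacetylase lists and 6 of the lists of other proteins, and 3R 8820000 to 8855616, with 7 of each. A further 7 domains met 15 lists. The median domain met 5 of the 8 lists of other deacetylases and 3 of the 8 lists of other proteins. All 8 lists of other deacetylases were met by 21 domains and only 1 of them by 9. Counted by protein, all 4 other deacetylases were met by 193 domains, 3 by 229, 2 by 106 and 1 by 13. None of the lists of other proteins was met by 13 domains.

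A wide interval meets more peaks than a narrow one by its length alone, and overlap with another deacetylase was part of the rule. The counts of domains met by a single list are therefore given beside the share of all HDAC3 list 2 peaks met. No such share was computed for counts over several lists, which describe the domains only. Density and coverage per base follow for 3 kinds of place, namely the domains, the narrower shared peaks and the rest of the arms, which is everything outside the domains, the narrower peaks included. Values for the deacetylases are a description with no test.

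HDAC1 was in most domains. List 1 met 472 of the 541 domains (87.2%), against 55.4% of all HDAC3 list 2 peaks, and list 2 met 489 (90.4%), against 63.8%. Inside the domains lay 24.2% of the peaks of HDAC1 list 1 by their midpoints, with a 95% Wilson interval of 22.7% to 25.7%. For list 2 the share was 18.7%, with an interval of 17.5% to 19.9%. The density was 8.54 midpoints per 100 kb in the domains and 2.04 in the rest of the arms for list 1, and 9.02 and 2.99 for list 2. HDAC1 covered 31.1% and 29.0% of the domain length in its 2 lists, against 23.7% and 25.4% of the narrower shared peaks. The midpoint density in the domains was 1.09 and 1.04 times that in the narrower peaks. Per kb, broad and narrow HDAC3 peaks thus held nearly the same number of HDAC1 peaks. Both HDAC1 lists met 451 domains, and neither met 31.

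HDAC6 list 2 covered more of the domains than any list other than those of HDAC3. It met 503 domains (93.0%), against 61.2% of all HDAC3 list 2 peaks, and covered 43.9% of the domain length, against 33.1% of the narrower shared peaks and 8.10% of the rest of the arms. Its density was 10.3 midpoints per 100 kb inside and 2.34 in the rest, a ratio of 4.39 that ran from 4.06 to 4.95 over the 5 large arms. It covered at least 50% of the length of 206 domains, against 104 for HDAC6 list 1. List 1 met 345 domains (63.8%), against 37.7% of all HDAC3 list 2 peaks, and covered 25.4% of the length. By share of domain length, the 2 HDAC6 lists thus differed more than the 2 HDAC1 lists did. HDAC6 list 1 also covered less of the rest of the arms, at 5.37%. Relative to the rest the order turned round. Coverage of the domains was 4.74 and 5.42 times that of the rest for HDAC6 lists 1 and 2, and 4.69 and 2.78 times for HDAC1. Both HDAC6 lists met 328 domains.

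The HDAC4a lists met 238 (44.0%) and 363 (67.1%) domains, against 25.9% and 43% of all HDAC3 list 2 peaks. They covered 11.4% and 27.1% of the domain length. Their densities in the domains were 3.31 and 6.10 midpoints per 100 kb, against 2.17 and 3.12 in the rest of the arms. HDAC11 was the least frequent deacetylase. Its lists met 100 (18.5%) and 165 (30.5%) domains, against 11.9% and 19.6% of all HDAC3 list 2 peaks, and covered 8.70% and 10.8% of the length. HDAC11 densities in the domains were 1.05 and 2.06 per 100 kb, which is 1.31 and 1.73 times the densities in the rest of the arms. In the domains, HDAC11 densities were 0.793 and 0.674 times those in the narrower shared peaks, and for HDAC4a the ratios were 0.990 and 0.846.

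Taken base by base, 33.5% of the domain length lay under no other deacetylase. A further 18.7% lay under 1 of the 4, 26.1% under 2, 16.8% under 3 and 4.90% under all 4. In the narrower shared peaks 43.4% of the length lay under none and 4.07% under all 4, and outside both kinds of place the shares were 80.7% and 0.586%. Most bases of a domain that carried another deacetylase therefore carried more than 1. The same held in the narrower shared peaks, with 17.9% under 1, 21.8% under 2 and 12.8% under 3. Outside both, the shares were 9.89%, 6.11% and 2.70%.

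Caudal at 4 to 8 h was the most frequent list of another protein. It met 451 domains (83.4%), against 55.4% of all HDAC3 list 2 peaks. Its 920 midpoints inside made up 16.5% of the list (95% Wilson interval 15.5% to 17.5%). The density was 10.8 per 100 kb in the domains and 4.18 in the rest of the arms, a ratio of 2.59 that ran from 2.03 to 5.10 over the large arms, with X highest. It covered 31.2% of the domain length, against 24.6% of the narrower shared peaks, and at least 50% of 114 domains.

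The Caudal list of younger embryos was sparser in the domains than in the rest of the arms. The 0 to 4 h list met 112 domains (20.7%), against 12.3% of all HDAC3 list 2 peaks, and its density was 1.24 per 100 kb in the domains and 1.84 in the rest of the arms. The ratio of 0.672 was below 1 on each of the 5 large arms, with a range of 0.563 to 0.935. These 2 Caudal lists differ in antibody, tag and strain as well as in age, and the 4 cannot be told apart. The 4 to 8 h list alone of the 2 met 356 domains, the 0 to 4 h list alone met 17, both met 95 and neither met 73.

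The adult female Caudal list was, like the 0 to 4 h list, sparser in the domains than in the rest of the arms. It met 156 domains (28.8%), against 21% of all HDAC3 list 2 peaks. It had 1.77 midpoints per 100 kb in the domains and 2.92 in the rest. This ratio of 0.606 was below 1 on each of the 5 large arms (0.486 to 0.709). Against the narrower shared peaks the 2 lists differed, with density ratios of 0.630 for adult Caudal and 0.983 for Caudal at 0 to 4 h. The larval list met 68 domains (12.6%), against 5.72% of all HDAC3 list 2 peaks. Its 76 midpoints gave 0.895 per 100 kb in the domains and 0.455 in the rest, and its ratio of 1.97 ran from 1.10 to 2.35 over the large arms. The larval list was also 1.26 times as dense in the domains as in the narrower shared peaks.

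EcR was rare in the domains. The 10 to 11 h list met 35 (6.47%), against 3.17% of all HDAC3 list 2 peaks, and the 30 to 33 h list met 31 (5.73%), against 2.86%. Their densities were 0.412 and 0.353 per 100 kb in the domains and 0.401 and 0.401 in the rest of the arms. The ratios of 1.03 and 0.880 lay above 1 on 2 of the 5 large arms for each list. At least 1 EcR list met 44 domains and both met 22.

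CTCF in S2 cells met 432 domains (79.9%) by list 200, against 56.3% of all HDAC3 list 2 peaks, and 240 (44.4%) by list 500, against 28.9%. Its densities were 9.13 and 3.38 per 100 kb in the domains and 3.68 and 2.09 in the rest of the arms. In the domains the densities were 0.868 and 0.725 times those in the narrower shared peaks. The zone within 1 kb of an edge was 12.7% of the domain length but 28.0% of the length of shared peaks of 5 to 10 kb. At 1 kb or more from an edge, CTCF 200 had 8.11 midpoints per 100 kb in the domains and 6.55 in those peaks. CTCF 500 had 2.81 and 2.80 there. Away from the edges the domains were thus no less dense than the shared peaks of 5 to 10 kb. The shared peaks under 5 kb were not part of this comparison. Over their whole length they had 12.4 and 5.32 midpoints per 100 kb in the 2 lists, against 9.66 and 4.36 in those of 5 to 10 kb. CTCF 200 covered 12.7% of the domain length and at least 50% of 2 domains. Both CTCF lists met 228 domains and neither met 97.

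**Figure D3:**
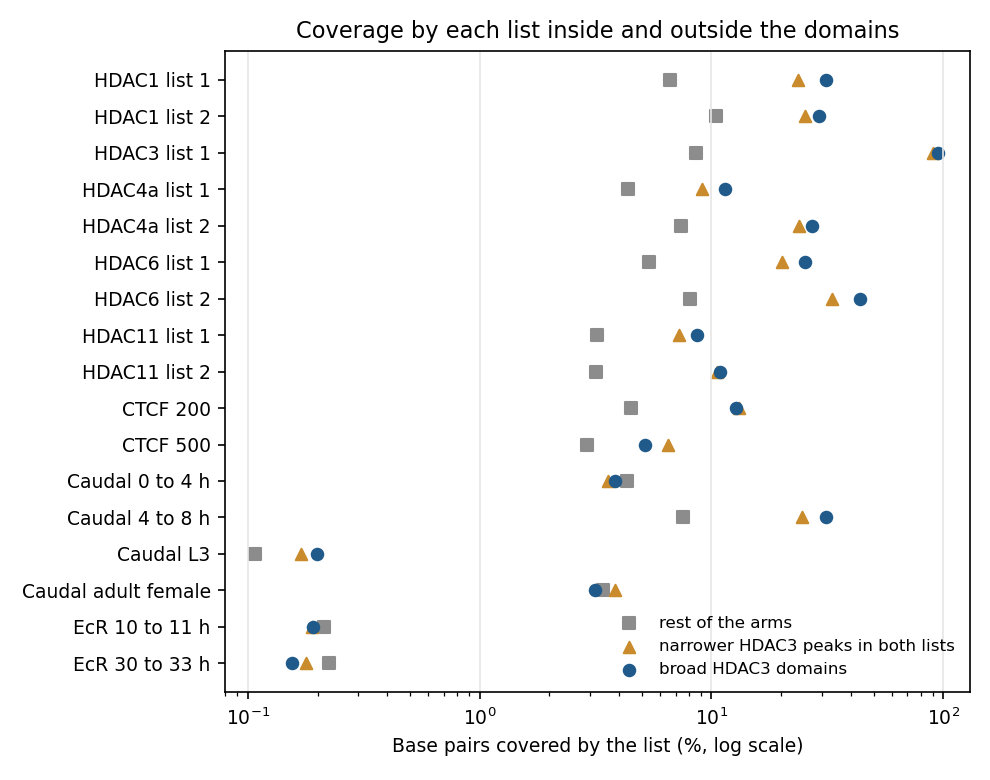
Percentage of base pairs covered by each of the lists (horizontal axis, log scale) inside the 541 broad HDAC3 domains, inside the 1759 narrower HDAC3 peaks found in both HDAC3 lists, and in the rest of the arms. HDAC6 list 2 covers 43.9% of the domains; Caudal at 0 to 4 h, adult Caudal and both EcR lists cover no more of the domains than of the rest of the arms.

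Width among the domains went with the number of lists met, while density fell with width in some lists and rose in others. The 311 domains of 10 to 15 kb met a median of 9 lists, the 140 of 15 to 20 kb met 10 and the 90 of at least 20 kb met 11. Over the same 3 classes the density of HDAC1 list 1 was 8.85, 8.64 and 7.95 midpoints per 100 kb, and that of CTCF 500 was 3.73, 3.27 and 2.95. Larval Caudal had 0.858, 0.797 and 1.05. Caudal at 4 to 8 h covered 29.5%, 31.1% and 34.1% of the length, and HDAC6 list 2 covered 43.1%, 43.9% and 45.1%.

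Lists that met a domain lay in different places within it. The zone within 1 kb of an edge made up 12.7% of the domain length. Of the CTCF 200 midpoints inside the domains, 174 of 775 lay in that zone (22.5%, 95% Wilson interval 19.7% to 25.5%), and of CTCF 500, 79 of 287 (27.5%, 22.7% to 33.0%). Adult Caudal had 51 of 150 there (34.0%, 26.9% to 41.9%), Caudal at 0 to 4 h had 32 of 105 (30.5%, 22.5% to 39.8%). The lists of a deacetylase differed. HDAC1 list 2 had 143 of 766 in the zone (18.7%, 16.1% to 21.6%) and list 1 had 111 of 725 (15.3%, 12.9% to 18.1%), with a ratio of edge to interior density as low as 0.999 on 1 arm for list 1. HDAC4a list 1 had 19.2% there (15.0% to 24.2%) and list 2 had 11.2% (8.76% to 14.2%), on opposite sides of 12.7%. Caudal at 4 to 8 h was on the other side, with 57 of 920 (6.20%, 4.81% to 7.94%). These intervals cover counting error only and treat peaks as independent.

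The density of CTCF midpoints in the edge zone was 1.98 times that in the interior for list 200 and 2.60 times for list 500. It lay between 1.64 and 2.43 and between 1.68 and 3.28 over the large arms. For adult Caudal the ratio was 3.53 (2.67 to 4.63), and for Caudal at 4 to 8 h 0.452 (0.374 to 0.611). In domains taken from HDAC3 list 1 instead, these 4 ratios were 1.89, 2.47, 3.38 and 0.510. In HDAC3 peaks of 5 to 10 kb they were 2.69, 2.98, 3.62 and 0.430. The edge preference of CTCF and adult Caudal, and the interior one of Caudal at 4 to 8 h, were therefore found in both HDAC3 lists and were shared with narrower peaks. Caudal at 0 to 4 h had a ratio of 3.00, which ranged from 1.34 to 15.9 over the arms on 105 midpoints in all.

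Coverage across the edge gave the same order of lists. CTCF 200 covered 9.69% of the first kb outside a domain, 19.1% of the first kb inside and 12.2% at 4 to 5 kb inside, and CTCF 500 covered 5.64%, 8.98% and 4.31%. Caudal at 4 to 8 h rose inward, with 10.9%, 19.7% and 33.0%, and HDAC4a list 2 did so too, with 12.5%, 23.8% and 28.7%. HDAC6 list 2 covered 27.8%, 41.2% and 45.3%. HDAC1 list 1 covered 23.6% just outside, 32.9% just inside and 31.4% further in, and list 2 had 28.7%, 33.4% and 29.1%. At 1 to 5 kb outside, HDAC1 coverage was lower still, with 14.4% for list 1 and 18.5% for list 2. HDAC1 coverage thus fell across the called edge of HDAC3 and beyond it. Its fall at the edge was smaller than that of HDAC3 list 1. That list covered 79.3% of the first kb inside and 20.5% of the first kb outside.

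**Figure D4:**
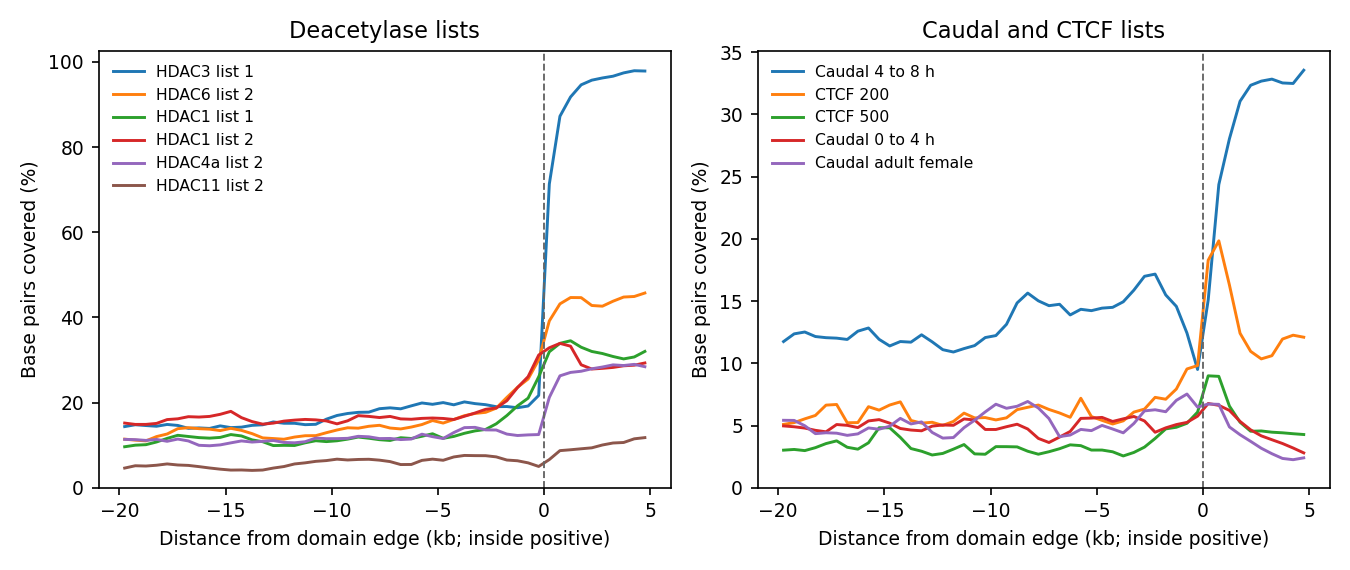
Percentage of base pairs covered by selected lists (vertical axes) against distance from the nearest edge of a broad HDAC3 domain (horizontal axes, kb; negative values lie outside, positive values inside), in bins of 500 bp. CTCF coverage is highest next to the edge inside, and Caudal at 4 to 8 h rises from the edge inward to 33.0% at 4 to 5 kb.

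Within the domains, some pairs of lists shared more bases than their separate coverage would give and others shared fewer. The measure used was the share of bases covered by both lists divided by the product of their separate shares, so that 1 is the value for unrelated coverage. CTCF 200 and HDAC1 list 1 had 2.14, with a range of 1.83 to 2.67 over the large arms, and 66.5% of the CTCF 200 bases in the domains also lay under HDAC1 list 1. With HDAC6 list 2 the value was 1.85 (1.67 to 2.02), and 81.0% of the CTCF 200 bases were shared. CTCF 200 and adult Caudal had 3.22 (2.33 to 4.54). CTCF 200 and HDAC11 list 2 had 1.02.

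Caudal at 4 to 8 h gave values below 1 with HDAC1, at 0.710 for list 1 (0.576 to 0.761 over the large arms) and 0.617 for list 2 (0.360 to 0.657). Of the bases under Caudal at 4 to 8 h, 22.1% and 17.9% also lay under the 2 HDAC1 lists, which covered 31.1% and 29.0% of all domain bases. The 2 lists of each other deacetylase stood on opposite sides of 1. The values were above 1 with HDAC4a list 2 (1.28), HDAC6 list 1 (1.26) and HDAC11 list 2 (1.50). They were below 1 with HDAC4a list 1 (0.848), HDAC6 list 2 (0.902) and HDAC11 list 1 (0.907). With CTCF 200 the value was 0.791 and with adult Caudal 0.490. With CTCF 500 it was 0.892, on both sides of 1 over the large arms (0.683 to 1.09). In the narrower shared peaks the values with the 2 HDAC1 lists were 0.632 and 0.531 and with HDAC4a list 2 1.50, on the same sides of 1. Bases under CTCF 200, HDAC1 and adult Caudal and bases under Caudal at 4 to 8 h thus tended to lie in different stretches of the domains. Outside the domains and the narrower shared peaks, the values stayed below 1 with HDAC1 (0.715 and 0.557). There they were above 1 with CTCF 200 (1.22) and adult Caudal (1.11). Which lists share bases also carries what they share in making, since the 8 lists of other deacetylases have 1 input and 1 stage.

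**Figure D5:**
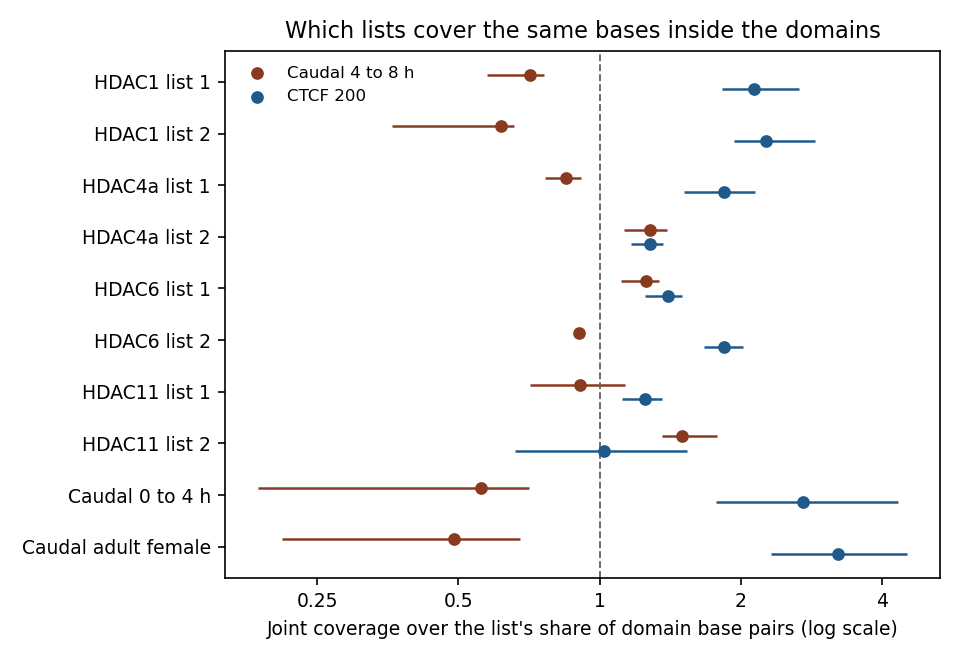
Joint coverage inside the broad HDAC3 domains, as the share of bases covered by both lists over the product of their separate shares (horizontal axis, log scale), for CTCF 200 and for Caudal at 4 to 8 h with 10 other lists. Points are values over all domains, horizontal bars run from the lowest to the highest of the 5 large arms, and the dashed line at 1 marks unrelated coverage; CTCF 200 stands at 2.14 with HDAC1 list 1, and Caudal at 4 to 8 h at 0.710.

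One comparison over lists was tested. To keep the choice of domains free of the lists compared, the 547 list 2 peaks of at least 10 kb that overlap list 1 were taken without regard to other deacetylases. The log2 ratio of midpoint density inside over outside was 1.22 ± 0.66 (mean ± SD, n = 8 lists) for the other deacetylases and 0.37 ± 0.83 (n = 8 lists) for CTCF, Caudal and EcR. The difference of 0.85 passed the threshold of 0.05 in an exact permutation test over all 12870 choices of 8 lists from 16, two-sided, with p = 0.042. The smallest p this test can give is 0.00016. Lists of the same protein are not independent, however. With the mean of each protein as the unit (4 against 3) the difference was 0.81 and the exact permutation p was 0.17, where the smallest possible is 0.029. Leaving out each list in turn gave differences of 0.69 to 0.99, and 8 of the 16 then missed the threshold. The lists left out in those 8 were both of HDAC1, both of HDAC6, both of EcR, Caudal at 0 to 4 h and adult Caudal. The deacetylase lists also share 1 stage and 1 input that the others do not, so target, stage and input cannot be told apart.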

How the data were processed

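ChIP-seq peaks of 18 immunoprecipitations were used, and 16 input samples had no list. The authors deposited 15 lists as intervals and 3 with a score (both EcR lists and Caudal L3), whose scale is not stated and which served only to take the upper 50% of those lists; the other lists were ranked by width for this. Coordinates are on BDGP release 5, per the submitters' processing notes, and are printed from 1. The labels and headers used here name no aligner or peak caller. Per the titles in the labels, libraries of a list were pooled, and nothing says that lists of a protein came from separate collections of embryos, so their spread may be technical. An annotation or sequence of release 5 was not used here, so regions carry no gene names.

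Peaks on 6 arms were compared with Python 3.11.15, numpy 2.4.6 and scipy 1.17.1. Overlap meant 1 bp or more, density counted peak midpoints, and 3 starts below 0 were used as given. Wilson intervals cover counting error only. Density and the exact test were tested on simulated data. The domains, lists of regions and tests were chosen with earlier results of these data known. Named by rule were the 10 widest domains, those in the most lists and the 3 peaks on each side of the limit. Clusters of at least 3 domains were also taken by rule, and those of 5 or more and some smaller ones are given. Alternatives changed the width, overlap, density measure, outside region, cluster gap and lists used.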

Additional observations from a re-analysis of the deposited data

How the results depend on the processing

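The number of domains was 795 at a width of at least 8 kb, 370 at 12 kb and 230 at 15 kb, against 541 at 10 kb. It was 535 when list 1 had to cover at least 50% of the domain, 456 with the HDAC3 lists exchanged, 546 with no overlap with list 1 asked for, and 537 to 541 without any 1 list of another deacetylase. The number of clusters fell from 46 to 25 with a gap of at most 25 kb and was 58 at 100 kb. The median density ratio inside over outside for the 8 lists of other deacetylases was 2.18. It was 3.55 by bases covered and 3.34 with the upper 50% of each list, which for the deacetylases means the wider peaks, since their lists hold no height. Against the narrower shared HDAC3 peaks the ratio of midpoint density reversed to 0.944, and for the 8 lists of other proteins the ratio of 1.29 reversed to 0.938. By bases covered, the domains still exceeded the narrower peaks for each of the 8 lists of other deacetylases, by 1.03 to 1.32 times. For the lists of other proteins this ratio ran from 0.796 to 1.27. A density above that of the arms at large was therefore not particular to the broad HDAC3 peaks. The pooled SD of the log2 ratio between lists of 1 protein was 0.40.

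The tested difference of 0.85 between lists of deacetylases and of other proteins was 0.74 with HDAC3 list 1 taken (exact permutation p = 0.066), 0.81 with proteins as units (p = 0.17), 0.80 without the 3 lists cut from a density track (p = 0.11) and 0.69 to 0.99 without any 1 list (p = 0.022 to 0.083). By bases covered it was 1.31 (exact permutation p = 0.0040), and at 15 kb 0.78 (p = 0.045). No paired analysis was possible because each list pools its libraries, and the numbers 1 and 2 of the lists of a protein only name them in accession order and pair no samples. The lists hold no read depth, so a domain missing from a list cannot be told from one under its threshold.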

Other observations

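Several sets of domains were picked out after their values had been seen, and their values are given with no test. The 31 domains with neither HDAC1 list had a median width of 11210 bp, and a narrower interval meets fewer peaks by its length alone. HDAC4a list 2 covered 40.0% of their length, HDAC6 list 1 39.5% and Caudal at 4 to 8 h 42.3%, against 26.5%, 24.8% and 30.7% in the 510 domains with HDAC1. HDAC6 list 2 went the other way, with 21.1% against 44.9%. The 2 HDAC6 lists therefore stood on opposite sides in the same domains. The HDAC11 lists differed there too, with 0% in list 1 and 13.4% in list 2.

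The 73 domains with no embryonic Caudal peak had 38.0% of their length under HDAC1 list 1, against 28.5% in the 356 with Caudal at 4 to 8 h alone and 35.5% in the 112 with Caudal at 0 to 4 h. The 44 domains with an EcR peak had 6.81% of their length under adult Caudal and 16.5% under CTCF 200, against 2.75% and 12.3% in the domains without. Domains with an EcR peak had a median width of 16433 bp against 13618 bp. A wider interval meets more peaks by its length alone, so this difference says nothing particular about EcR.

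Of the 11 HDAC3 peaks of at least 10 kb that were not domains, the widest lay at 2R 18798375 to 18824921. It was 26547 bp wide and met 5 lists of other deacetylases but 0 peaks of HDAC3 list 1. The single domain that Caudal at 4 to 8 h covered most, at 93.9%, was the 10623 bp one at 3L 3353251 to 3363873.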
